A study of Mus musculus with 6 samples.

Results

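The Serpina cluster of mouse chromosome 12 holds many copies of genes for secreted serine protease inhibitors, among them the Serpina1 genes (Serpina1a and Serpina1b included) and the Serpina3 genes (Serpina3k included). Its members here were all tags whose 5′ end fell on either strand of the mm9 interval chr12:104800001-105900000, which spans 1100 kb. The interval held 1615 tags with 1 listed location, at 725 distinct 5′ ends, and these fell into 64 of the 79112 strand-specific windows of 2 kb in which any library had a tag. The tags came from parallel analysis of RNA ends (PARE), a method that ligates an adaptor to 5′ monophosphates of polyadenylated RNA and reads a short tag next to it, so that a tag marks where a cut or decapped RNA began. There were 6 libraries, 1 each of whole brain, lung, liver, kidney, ovary and spleen of adult mice on the BALB-c background, with no treatment or mutation named in the labels and with the number and sex of animals per library not given in the sources used here.

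Serpins trap their target protease by a large change of shape in which an exposed loop is cut and the enzyme is carried to the other pole of the inhibitor. Serpina1 proteins (alpha-1 antitrypsin) restrain neutrophil elastase and are made mainly by hepatocytes, which release them into the blood. The mouse has several copies of this gene where humans have 1, and likewise a set of Serpina3 copies related to human antichymotrypsin, of which Serpina3k (contrapsin) is abundant in the liver. PARE counts only RNAs that have a poly(A) tail and a 5′ monophosphate. Its level is therefore a level of RNA ends, not of messenger RNA, and in whole tissue fewer cells of a type and less RNA per cell cannot be told apart.

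The strongest 5′ ends of the interval show what a single measurement looks like. The 5 ends with the most tags over the 6 libraries are given below 5′ to 3′, with the first base of the RNA after the cut in capitals because that base is compared further on.
Plus strand, chr12 position 105583789, 54 tags: Taagactttggactctcagt
Minus strand, chr12 position 105001859, 37 tags: Ttgggttcccttcattaaac
Minus strand, chr12 position 105133405, 30 tags: Taaggctgtgctgaccatgg
Plus strand, chr12 position 105583727, 30 tags: Ttggctgttccaaagttggc
Plus strand, chr12 position 105583760, 26 tags: Ttgactatctctgtgatccc
Each of the 5 ends had most of its tags in liver, with 48, 35, 24, 23 and 19 liver tags in the order printed. Kidney was the next library at each of them, with 4, 2, 5, 5 and 5 tags.

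Library depth sets what can be seen at this interval. Lung was the deepest library with 493121 tags at 1 location, followed by kidney (162270), liver (78952), spleen (42939), brain (33382) and ovary (29213), and levels are given as tags per 1000000 of these totals (CPM). A count of 0 allows up to 3 tags, which is 6.08 CPM in lung but 102.7 CPM in ovary. With 1 library per tissue there was no replicate check and no test between tissues. The exact Poisson, binomial and conditional intervals below are at 95% and cover counting error only, and PCR reads without molecular identifiers are not independent molecules. As a check on the labels, tags at the start of Kap, a gene of the kidney proximal tubule, numbered 1006 in the kidney library (6200 CPM). The same start had 135 tags in lung (273.8 CPM), 1 in liver, 2 in ovary, 3 in spleen and 0 in brain. The part of that lung signal in the values below was not tested. Of the 19 marker genes fixed for the tissues, 9 had a start sequence in the RefSeq table and only Kap and Umod (1 kidney tag) had any tag at it, so that no liver, lung, brain, ovary or spleen marker could be read this way.

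Tags of the Serpina interval were concentrated in the liver library. Liver had 1252 of them, which is 15858 CPM (14991 to 16761) or 1.59% of all its unique tags. Kidney had 163 tags (1005 CPM, 856.2 to 1171), spleen 26 (605.5 CPM, 395.5 to 887.2), lung 163 (330.5 CPM, 281.8 to 385.4), ovary 8 (273.9 CPM, 118.2 to 539.6) and brain 3 (89.9 CPM, 18.5 to 262.6). Liver stood alone, 15.8-fold above kidney (13.4 to 18.7). Kidney was 1.66-fold above spleen (1.09 to 2.62), and spleen was 1.83-fold above lung (1.16 to 2.78). Lung and ovary could not be ordered (ratio 1.21, 0.598 to 2.84), nor could ovary and brain (ratio 3.05, 0.731 to 17.8). Each distinct end was also counted once, with the library's total of distinct ends in place of its total of tags as the scale. Values on that scale are not CPM and cannot be read as a rise or fall from the levels above. They were 516.7 in lung and 979.5 in spleen, and the liver to kidney ratio was 11.4. Kidney was then no longer apart from spleen (ratio 1.14, 0.738 to 1.83), and scaling the libraries by trimmed means of M values left spleen no longer apart from lung (ratio 1.31, 0.833 to 1.99).

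**Figure D1:**
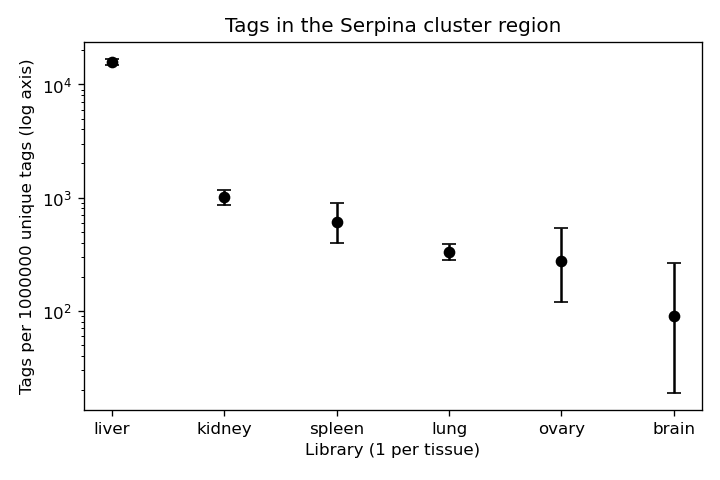
Level of the whole Serpina interval in each of the 6 libraries, as tags per 1000000 unique tags on a log axis. Points are single libraries and bars are exact Poisson 95% intervals. Liver lies at 15858 and the next library, kidney, at 1005.

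Both strands took part. Liver tags divided into 797 on the plus strand and 455 on the minus strand, and kidney tags into 105 and 58. Lung had 99 on the plus strand and 64 on the minus strand. The strand matters because the chains of ends described next each lie on 1 strand, and because the way repeated sequences were listed depends on it.

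In 2 kb windows with at least 20 tags over the 6 libraries, liver was called where its level was at least 2-fold above the highest other library, a count of 0 being taken as 3 tags. All 11 such windows of the interval were called for liver. Over the whole genome 290 of 6960 windows passed the same rule, or 4.17%. The minimum favours such calls: 8 of the 11 windows reached it only with their liver tags, having 5 to 13 tags in the other libraries, so they had to be high in liver and their calls add nothing. The other 3 windows had at least 20 tags without liver, and by that minimum 160 of 6453 windows of the genome (2.48%) were called for liver. For kidney the whole-genome share was 2.63% and for lung 1.58%, and no window of the interval was called for either. The 11 windows held 1399 tags, 86.6% of those in the interval, and the other 53 windows held 216. A call is not possible at low counts: where brain and ovary have no tag, liver needs at least 17 tags. Just below the minimum, the 8 windows with 10 to 19 tags had between 0 and 14 liver tags, none was called, and liver had the highest level in 5 of them.

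The window with the most tags, chr12:105582001-105584000 on the plus strand, had 673 tags in liver, 89 in kidney, 64 in lung, 11 in spleen, 1 in ovary and 0 in brain. Its liver level of 8524 CPM (7892 to 9193) was 15.5-fold that of kidney at 548.5 CPM (12.4 to 19.6). Counting each distinct end once, on the scale of distinct ends, gave 4862 in liver. The window thus took a smaller share of liver's distinct ends than of its tags. Its liver ends therefore carried more tags each than the average of that library. On the minus strand the largest window was chr12:105132001-105134000, with 89 liver tags (1127 CPM), 7 in kidney, 11 in lung and 1 each in ovary and spleen. It was followed by chr12:105000001-105002000, with 78 liver tags (987.9 CPM), 5 in kidney, 14 in lung and 1 in spleen. Over the next library that had a tag, the liver ratio ranged over the 11 windows from 8.16 (2.62 to 41.0) at chr12:105184001-105186000, where spleen was next with 3 tags, to 32.1 (13.2 to 101.5) at chr12:105000001-105002000, where kidney was next. The intervals of these extremes overlap. With a count of 0 taken as 3 tags, as in the calls, the ratio ranged from 2.34 at chr12:105580001-105582000 to 15.5 at the largest window, and at chr12:105000001-105002000 it was 9.62, set by the limit of the ovary library.

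The remaining named windows had lower liver levels. On the plus strand, chr12:105578001-105580000 had 55 liver tags (696.6 CPM), chr12:105632001-105634000 had 38 (481.3 CPM) and chr12:105580001-105582000 had 19 (240.7 CPM). On the minus strand, chr12:104966001-104968000 had 48 liver tags (608.0 CPM), chr12:105184001-105186000 had 45 (570.0 CPM) and chr12:105090001-105092000 had 37 (468.6 CPM). The last pair, chr12:104968001-104970000 and chr12:104854001-104856000, had 24 (304.0 CPM) and 23 (291.3 CPM). Among libraries with a tag, the highest other level in these 8 windows was 69.9 CPM, from 3 spleen tags in each of 2 of them, while 0 tags allow up to 89.9 CPM in brain and 102.7 CPM in ovary.

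Windows cut transcripts at arbitrary points, so ends of the same strand were also chained wherever neighbours lay within 12 kb. This gave 10 loci with at least 20 tags, numbered along the chromosome, which held 1541 tags (95.4%); the chaining was chosen after the tags had been seen. The 8 loci on the minus strand were locus 1 (chr12:104847134-104866566), locus 2 (chr12:104926274-104932126), locus 3 (chr12:104966443-104970743), locus 4 (chr12:105001814-105011771), locus 5 (chr12:105091538-105094092), locus 6 (chr12:105132896-105135428), locus 7 (chr12:105185167-105189493) and locus 8 (chr12:105384819-105390113). On the plus strand lay locus 9 (chr12:105578703-105586004) and locus 10 (chr12:105627869-105634628). Neither the deposited tables nor an mm9 annotation gave gene names here, so no locus is named for Serpina1a, Serpina1b or Serpina3k, and the 3 genes have no level of their own.

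Liver had the highest level at 9 of the 10 loci. The tag minimum for loci favours this count, as it did for the windows. Loci 1, 5, 7, 8 and 10 reached the minimum only with their liver tags, so their liver lead adds nothing. Loci 3, 4, 6 and 9 reached it without liver and were also highest in liver. No whole-genome share of loci led by liver was computed to set beside the count. Locus 9 alone had 750 of the 1252 liver tags (59.9%, 57.1 to 62.6), and a like share of the kidney tags, 101 of 163 (62.0%, 54.0 to 69.4). Its tags numbered 69 in lung, 13 in spleen, 1 in ovary and 0 in brain. The other loci led by liver had between 19 liver tags at locus 8 (240.7 CPM) and 114 at locus 4 (1444 CPM). Kidney had between 1 and 8 tags at each of these 8 loci.

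Locus 2 was the exception. It had 24 tags in kidney (147.9 CPM), 5 in lung (10.1 CPM) and none in liver, ovary, spleen or brain. Locus 2 reached the minimum of 20 tags only with its kidney tags, so its kidney lead adds nothing. Its kidney level was 14.6-fold that of lung (5.46 to 48.9). A count of 0 allows up to 38.0 CPM in liver, and the limits are higher in the shallower libraries of spleen (69.9 CPM), brain (89.9 CPM) and ovary (102.7 CPM). Kidney was therefore 1.44-fold above the highest of these limits, less than the 2-fold used for calls. The tags were spread over 28 ends, 27 of them with a single tag, and without the strongest end kidney still had 22. Because they lay thinly over several windows, no 2 kb window of this locus reached 20 tags. A 5 kb window starting at position 104925001 did, again only with its kidney tags. It held 20 kidney tags, 4 lung tags and 0 liver tags.

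**Figure D2:**
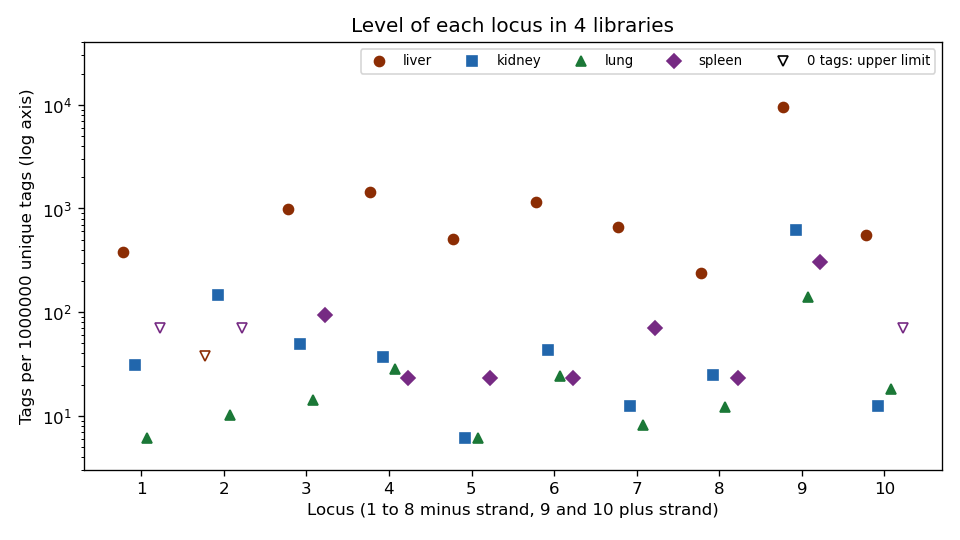
Level of each of the 10 loci in the liver, kidney, lung and spleen libraries, as tags per 1000000 unique tags on a log axis. Filled symbols are libraries with tags, and open triangles mark the upper limit allowed by a count of 0. Liver is the highest filled symbol everywhere but at locus 2, where it has 0 tags and kidney stands at 147.9.

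Outside the loci, 14 chains with fewer than 20 tags held the other 74 tags. At chr12:105651952-105652502 on the plus strand lung had 9 tags (18.3 CPM), liver 2 (25.3 CPM), and kidney, ovary and spleen 1 each, so liver did not stand out there. At chr12:104884862-104885118 on the minus strand liver had 13 tags (164.7 CPM), lung 2 and kidney 1.

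Within a locus the ends were bunched. At locus 9, 575 of 750 liver tags (76.7%, 73.5 to 79.7) began within a stretch of 300 nt, chr12:105583611-105583910. The same stretch held 75 of 101 kidney tags (74.3%, 64.6 to 82.4), 61 of 69 lung tags (88.4%, 78.4 to 94.9) and 9 of 13 spleen tags. In liver the locus had 280 distinct ends, 151 with a single tag, and the strongest took 48. In kidney the strongest end was at 105583710 with 6 tags, and in spleen it was at 105583802 with 2.

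At the other loci the densest 300 nt held from 27.6% of tags at locus 2 to 85.7% at locus 7. Locus 4 had 78.5% there, and a single end, the one at 105001859, supplied 37 of its 135 tags (27.4%). Locus 6 was as uneven, with 30 of 113 tags (26.5%) at 105133405. Locus 1 (32 ends for 38 tags) and locus 2 (28 ends for 29 tags) had no end with more than 2 tags, and 26 and 27 of their ends had a single tag.

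**Figure D3:**
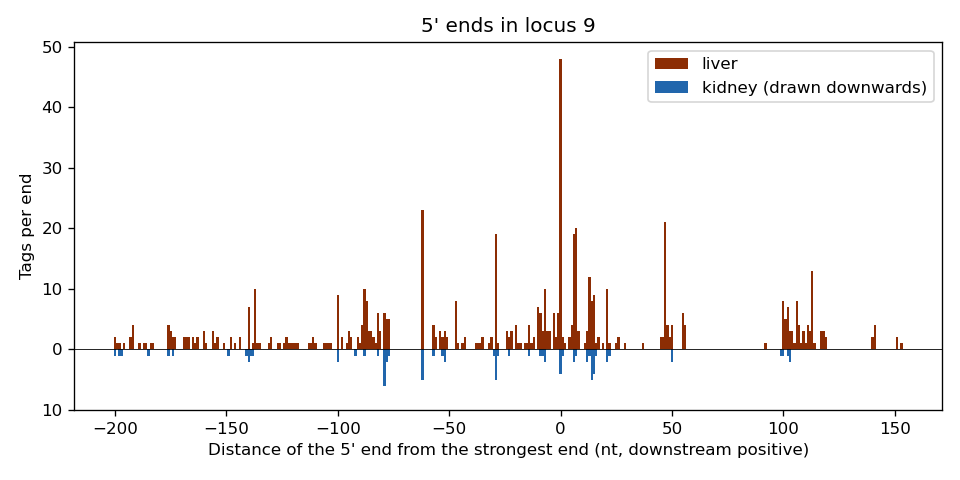
Tags per 5′ end along locus 9 from 200 nt upstream to 200 nt downstream of its strongest end, liver drawn upwards and kidney downwards. Most ends hold a few tags, with isolated peaks, the highest being the strongest end with 48 liver and 4 kidney tags.

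Paralogs were visible in the tags themselves. Each tag sequence was compared with the sequence of every other locus, as far as overlapping tags allowed it to be rebuilt, with up to 3 mismatches. Loci joined where over 10% of sequences matched, which gave a family of the minus-strand loci 3 to 7 and a family of loci 8, 9 and 10. Not all loci of the first family matched each other: loci 5 and 6 had no match with loci 4 and 7 and were joined to them through locus 3. Both grouping and threshold were set after the tags had been seen. In the first family 120 of 251 sequences (47.8%) matched another of its loci, and in the second 143 of 464 (30.8%). Of the 64 ordered pairs of loci outside a family, 61 had no match at all and none had more than 1. Loci 1 and 2 matched nothing.

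How closely the matched sequences resembled their counterpart was bounded by the limit of 3 mismatches and may also depend on the listing. In the first family the best match had 1 mismatch for 75 sequences, 2 for 37 and 3 for 8, and none was exact. No table lists a sequence at 2 places on 1 strand, and the filter behind this is not described. Whether exact matches were removed from the first family therefore cannot be told. In the second family 7 sequences of locus 8 that were listed at 1 location matched the rebuilt sequence of locus 9 exactly, 56 had 1 mismatch, 41 had 2 and 39 had 3. The closest pairs were loci 5 and 6, where 72.7% of the sequences of locus 5 were found in locus 6. Among the second family 52.3% of the sequences of locus 10 were found in locus 9. The rebuilt sequence was short, from 187 bases at locus 5 to 1220 at locus 9, so these shares do not measure the likeness of whole loci.

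**Figure D4:**
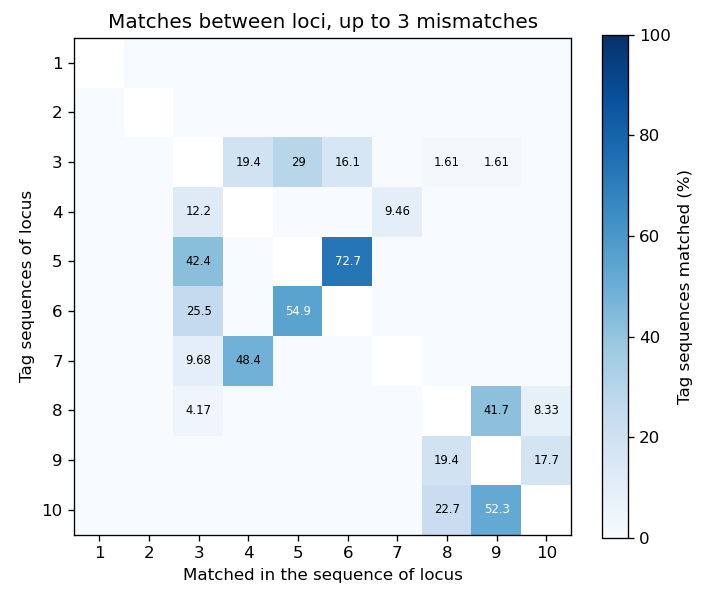
Share of the tag sequences of each locus (rows) that match the rebuilt sequence of each other locus (columns) with up to 3 mismatches. Nearly all matches fall in 2 blocks, loci 3 to 7 and loci 8 to 10. Inside the first block, loci 5 and 6 have no match with loci 4 and 7. The strongest cell is locus 5 in locus 6 at 72.7%.

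Matching ends in different copies could be read side by side. The end with 22 tags at position 105133228 in locus 6 and the end with 14 tags at 104966458 in locus 3 begin at the same base of the shared sequence. They differ over 21 nt only by A16C, locus 6 given first and positions counted from 1 at the 5′ end, with that base in capitals.
Locus 6: taaatgaccaccctaAgatgt
Locus 3: taaatgaccaccctaCgatgt
The first had 19 tags in liver and 3 in lung, the second 13 in liver and 1 in spleen. The like end in locus 5, at 105091891, had 1 tag.
Most matching ends were less even. The end with 30 tags at 105583727 in locus 9 had a counterpart with 1 tag at 105632233 in locus 10.

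The families were set side by side by their balance of liver and kidney. Each includes loci that reached the tag minimum only with their liver tags, loci 5 and 7 in the first and loci 8 and 10 in the second. The minimum therefore favours liver in the ratios below, by an amount that was not tested. Loci 3 to 7 together had 376 tags in liver (4762 CPM), 24 in kidney (147.9 CPM), 40 in lung (81.1 CPM), 10 in spleen (232.9 CPM), 4 in ovary and 0 in brain. Loci 8 to 10 had 813 in liver (10297 CPM), 107 in kidney (659.4 CPM), 84 in lung (170.3 CPM), 14 in spleen (326.0 CPM), 2 in ovary and 0 in brain. Liver was 32.2-fold above kidney in the first family (21.3 to 50.9) and 15.6-fold in the second (12.8 to 19.3). The ratio of these ratios was 2.06 (1.29 to 3.41). Counting each end once gave 2.14 (1.23 to 3.87), and leaving out the strongest end of every locus gave 2.21 (1.29 to 4.02). Without locus 9 the second family kept 63 liver and 6 kidney tags, and the ratio of ratios was 1.49 (0.479 to 3.94), an interval that holds both 1 and 2.06. Against lung the families had a ratio of ratios of 0.971 (0.645 to 1.48), and without locus 9 it was 2.23 (1.08 to 4.43).

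Ends seen in other tissues were compared with the ends seen in liver. Over both families, 98 of 131 kidney tags (74.8%, 66.5 to 82.0) lay at 1 of the 522 ends that liver used, as did 87 of 124 lung tags (70.2%, 61.3 to 78.0). In spleen it was 15 of 24 tags (62.5%, 40.6 to 81.2) and in ovary 4 of 6. In the 279 windows called for liver outside the interval the shares were 61.3% (60.0 to 62.6) in kidney, 62.7% (61.7 to 63.6) in lung, 83.4% (81.0 to 85.6) in spleen and 49.5% (43.8 to 55.2) in ovary. A share of this kind depends on how many liver tags a place has.

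Paralogy also limited which tags could be placed. Although each table is of uniquely aligned tags, 30843 sequences, summed over libraries, were listed at 2 locations. In every case 1 location was on each strand and in no case were both on the same strand. Loci 3 to 7 lie on 1 strand, and none of their tags was listed at another of these loci. The tags in the levels above exclude all sequences with 2 locations.

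In the second family, which spans both strands, the double listings could be counted. Counted once over the libraries, 58 sequences of the interval were listed at 2 locations. Of these, 47 (81.0%, 68.6 to 90.1) had both locations inside the interval. Elsewhere 3.56% (3.34 to 3.79) of 26599 sequences had locations no farther apart than the interval is wide. Loci 8 and 9 shared 37 such sequences with 82 tags, of which 67 were from liver, 7 from kidney, 6 from lung and 2 from spleen. Loci 8 and 10 shared 9 with 28 tags, of which 23 were from liver, 4 from kidney and 1 from lung. At locus 8 these made up 110 of 141 listed tags (78.0%, 70.3 to 84.5). The share was 33.7% (23.7 to 44.9) at locus 10 and 8.16% (6.55 to 10.02) at locus 9, so the unique level of locus 8 leaves out most of what was listed there.

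The sequence with 2 locations and the most tags shows how little separates the copies. It had 19 tags, 14 from liver, 4 from kidney and 1 from lung, and fitted position 105632195 on the plus strand in locus 10 and position 105385390 on the minus strand in locus 8. At the corresponding place in locus 9, position 105583689, an end with 14 tags (9 from liver, 2 each from lung and kidney, 1 from spleen) carried a sequence that differed by G2A, G12A and T14A, counted from 1 at the 5′ end, with the sequence of loci 8 and 10 given first and the bases that differ in capitals.
Loci 8 and 10: tGtggatctctGtTtacatcc
Locus 9: tAtggatctctAtAtacatcc

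The share of entries with 2 locations was also compared with the rest of the genome. An entry is a sequence at 1 location, so a sequence with both locations inside the interval counts as 2 entries. The intervals treat such entries as independent, which they are not. In liver it was 11.2% of 767 entries (9.07 to 13.7) against 9.74% elsewhere (9.49 to 9.997), so the intervals overlap. In kidney it was 10.1% (5.62 to 16.3) against 9.91%, and in lung 12.1% (7.56 to 18.1) against 9.99%. Few entries lay in the interval in the other libraries: 4 of 30 had 2 locations in spleen (13.3%, 3.76 to 30.7, against 15.5%) and 0 of 8 in ovary (against 11.9%). In brain it was 3 of 6 entries, against 9.83% elsewhere (9.51 to 10.17). Of these 3 entries, 2 were the locations of 1 sequence, so brain cannot be set apart from the rest of its library.

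**Figure D5:**
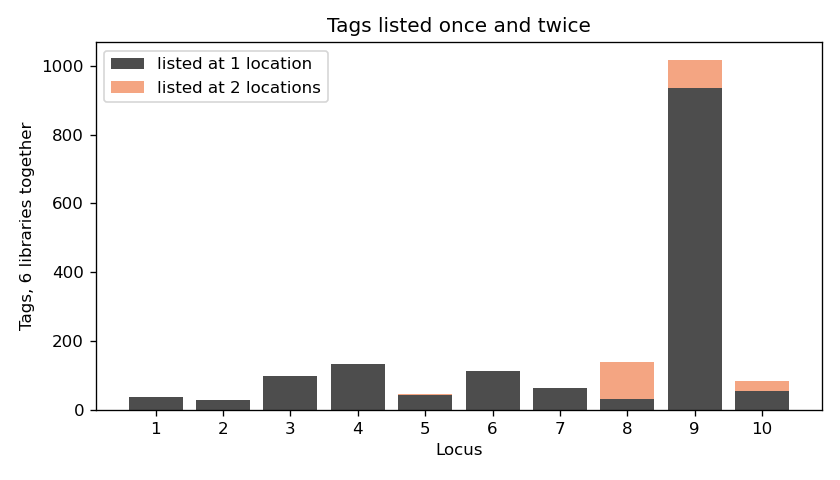
Tags of each locus over the 6 libraries, divided into those listed at 1 location and those listed at 2. Locus 8 is the locus with more tags at 2 locations (110) than at 1 (31).

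The first base after the cut differed between strong and weak ends. Liver tags of the interval began with T in 54.1% (51.3 to 56.9), against 44.6% (44.3 to 45.0) of liver tags elsewhere. By distinct ends the order was the other way, 36.3% (32.4 to 40.4) against 42.5% (42.1 to 43.0). The excess in tags thus came from ends with many tags. Liver ends of the interval with 5 or more tags began with T in 30 of 43 (69.8%, 53.9 to 82.8), those with 2 to 4 tags in 60 of 152 (39.5%, 31.6 to 47.7) and those with 1 tag in 121 of 386 (31.3%, 26.7 to 36.2). In the rest of the liver library the same classes had 49.3%, 48.5% and 41.5%, a narrower range.

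The pattern was not the same at every locus. Of the 20 strongest ends of the interval 18 began with T, all 5 printed above among them. By tags the share was 63.7% at locus 4, 66.7% at locus 7, 57.5% at locus 6 and 55.6% at locus 9, but 38.8% at locus 3 and 17.8% at locus 5, which lie in the same family as loci 4, 6 and 7. Ends of 1 locus may share a transcript, so these cannot be taken as independent. Kidney tags of the interval also began with T more often than other kidney tags, 49.7% (41.8 to 57.6) against 29.9% (29.7 to 30.1). By distinct ends the kidney gap was narrower, 41.3% (32.4 to 50.6) against 31.7% (31.4 to 32.0). Of the 163 kidney tags 101 lay at locus 9. By tags, libraries differed in the share beginning with T over the rest of the genome, where brain had 28.2% and spleen 36.9%.

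Across the genome, windows with the tissue balance of the Serpina interval were looked for among 375 windows with at least 200 tags. Likeness was the distance between the shares that each library took of the summed levels, over 6 libraries, and liver took 87.3% and kidney 5.53% of the summed level in the Serpina interval. The 5 nearest were chr3:82846001-82848000 on the minus strand, chr3:82836001-82838000 on the plus strand, chr19:38190001-38192000 on the minus strand, chr5:90900001-90902000 on the plus strand and chr3:82834001-82836000 on the plus strand. At the chromosome 5 window liver had 832 tags (10538 CPM), kidney 161 (992.2 CPM), lung 95 (192.7 CPM) and spleen 14 (326.0 CPM). Liver was 10.6-fold above kidney there (8.96 to 12.7), and at the first chromosome 3 window 17.2-fold (12.2 to 24.8). Among the 45 windows of this size that were called for liver and had a kidney tag, the median liver to kidney ratio was 13.3 and the range 2.05 to 189.1. The ratio of 15.8 in the Serpina interval lay inside that range.

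Of the 26 genes listed for the interval, 20 had a sequence in RefSeq's table for GRCm38.p6, which gives 250 bases before to 50 after each start. Serpina1a and Serpina1b were among them, but Serpina3k was not, so neither the match nor the letter search below covers it. No tag of the interval matched any of the sequences given over 20 bases, nor did any of its 906 tag sequences with 1 mismatch. Serpina1a to Serpina1e resembled each other: 50.5% of the 20-base stretches of Serpina1a occurred in another of the 5, and 34.2% occurred in Serpina1b. None of the other 15 genes shared such a stretch with them.

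The letters GTTAAT, found in many binding sites of the liver factor HNF1, were searched on both strands of the 250 bases before the start. They occurred in all 5 of Serpina1a to Serpina1e and in 1 of the 17 other listed promoter sequences, that of Serpina3c. Because those 5 share much of their sequence, they are not 5 independent cases. Of all 32851 promoter sequences given there, 6.43% held them. A match is a description and not a known site. The 100 bases before the start are shown for Serpina1a and Serpina1b, with these letters in capitals.
Serpina1a: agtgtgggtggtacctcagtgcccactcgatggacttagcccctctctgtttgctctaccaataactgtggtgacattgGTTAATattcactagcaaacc
Serpina1b: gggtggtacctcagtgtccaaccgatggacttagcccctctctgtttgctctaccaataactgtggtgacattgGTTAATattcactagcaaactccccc
The first G of the match lies 21 bases before the start in Serpina1a and 26 in Serpina1b.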

How the data were processed

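PARE libraries of 6 tissues were compared, 1 each. Polyadenylated RNA was ligated at 5′ monophosphates, copied, cut to short tags with MmeI, barcoded and amplified, per the labels' protocols, and aligned to mm9 with Bowtie, as the submitters' processing notes name them. Its version and mismatch setting were not given in the sources used here. The deposited tables give each distinct sequence, its location and a read count, and the deposited score, a display value, was not used as a measurement. Tags of 20 or 21 nt made up 99.55% of reads. Minus-strand sequences were written in reference orientation (99.4% identical as written over 23159 shared bases) and were complemented. The 5′ end is the first base on the plus strand and the last on the minus strand, counted from 1. Sequences listed at 2 locations were left out of levels.

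Levels, windows and intervals were computed with Python 3.11.15, pandas 2.3.3 and scipy 1.17.1, and the scripts were tested on simulated data. Every window with at least 20 tags was named (12 at most), with the 5 strongest ends and the 5 most alike windows. The genes and lists were chosen with earlier results of these data known. Genes were to be named by matching tags to proteins. No protein sequences or mm9 annotation were used here, so the match to promoter sequences took its place. Other counting units, scalings, window sizes and minimum counts were tried.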

Additional observations from a re-analysis of the deposited data

Results flagged for a closer look

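Sequences listed at 2 locations were left out of every level. In liver, kidney and lung they carried more tags in the Serpina interval than the 3 that a count of 0 allows. Summed over listings the counts were 182 in liver, 24 in kidney, 21 in lung and 4 in spleen. A tag with both locations inside the interval is counted at each of them there, so the tags themselves were fewer. At loci 8 and 9 such tags numbered 67 in liver, 7 in kidney and 6 in lung. The 4 spleen listings were 2 tags of loci 8 and 9.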

How the results depend on the processing

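Counting all listed tags, or leaving out the strongest end, moved no level of the interval outside its counting interval. Scaling by trimmed means of M values (own implementation over 12337 windows with at least 10 tags) gave 21592 CPM in liver, 1286 in kidney and 397.9 in lung. Counting each distinct end once was scaled to the library's total of distinct ends, so its values are not CPM. It gave 12724 in liver, 516.7 in lung and 979.5 in spleen, and a liver to kidney ratio of 11.4. The ratio was 15.95 with all listed tags and 16.8 with the other scaling. A minimum of 50 tags left 6 windows, all called for liver, but only the largest window reached 50 without its liver tags (165 tags). With 20 tags outside liver as the minimum, 3 windows were left, all called for liver. A minimum of 10 tags gave 11 calls in 19 windows, and 5 kb windows gave 8 in 9. Chaining ends within 8 or 20 kb in place of 12 also gave 10 loci. These gaps, the minimum without liver tags, and leaving out ends or loci in the comparison of families were chosen after seeing the data, and the other settings were planned. No paired analysis was possible because each tissue has 1 library, and no replicate could be left out for the same reason. The alternatives for naming genes by peptides were not run, since no protein sequences were used here. Depth limits most what can be said of brain and ovary, with 3 and 8 tags.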
